A study of Mus musculus with 16 samples.

Results

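The 8 tendon lineage genes *Scx*, *Mkx*, *Tnmd*, *Fmod*, *Kera*, *Thbs2*, *Thbs4* and *Cilp* were taken by name from the 49671 genes of a table of transcript counts from single cells of mouse dorsal root ganglia (DRG), where cells sorted as neurons came with connective tissue cells. They were followed in the e15.5 wells with at least 10000 unique molecular identifiers (UMIs), by library and by cell class. A well was called a connective tissue cell when the collagen I genes *Col1a1* and *Col1a2* together reached 2000 UMIs per 1000000 UMIs of the well (CPM) and the sensory neuron genes *Avil* and *Isl1* together stayed under 100 CPM. A neuron had the reverse on both thresholds. Of 871 wells, 356 (40.9%) were connective tissue cells and 397 (45.6%) were neurons, while 37 met both marker thresholds and 81 met neither.

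The study profiled proprioceptive sensory neurons, the DRG cells that report muscle stretch and tension, by CEL-Seq2, a plate method that counts the 3′ ends of transcripts by UMI. The 10 libraries at embryonic day 15.5 came from the strain labelled PvtdTom, in which an artificial chromosome carries tdTomato under the parvalbumin promoter, and tdTomato-positive cells were sorted after enzymatic digestion of the ganglia. The 6 libraries at postnatal day 1 carry the joint label Trpv1Cre; PvFlp; Ai65 and PvCre; Ai14, lines in which Cre, or Cre with Flp, switches on a tdTomato reporter, and these cells were picked by hand. No treatment is named at either age, the labels do not tie a library to a spinal level, a sex or an animal, and at p1 they do not tie a library to one of the lines, so the spread between libraries may be technical in part. The labelled tissue is proprioceptive sensory neurons throughout. The connective tissue cells went against that label, with a median of 21373 CPM of *Col1a1* plus *Col1a2* and 7.14 CPM of *Avil* plus *Isl1*, against 78.5 CPM and 1348 CPM in the neurons. *Pvalb*, the gene of the sorting promoter, stood at 11.1 CPM in connective tissue cells and 389 CPM in neurons.

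Tendons join muscle to bone through parallel collagen fibrils made by tenocytes. Their progenitors are marked by *Scx*, which encodes scleraxis, a basic helix-loop-helix transcription factor that binds E-box motifs, and the homeobox factor *Mkx* acts with it in the tendon programme. *Tnmd*, the transmembrane glycoprotein tenomodulin, marks differentiating tenocytes and is a known target of scleraxis. *Fmod* (fibromodulin) and *Kera* (keratocan) are small leucine-rich proteoglycans that bind collagen fibrils, *Thbs2* and *Thbs4* encode thrombospondins of the extracellular matrix, and *Cilp* encodes a secreted matrix protein of cartilage and tendon that binds TGF-beta.

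In GENCODE M21 on GRCm38 all 8 are protein-coding genes. *Scx* (ENSMUSG00000034161) lies on the plus strand of chromosome 15 from 76457452 to 76459458, *Tnmd* (ENSMUSG00000031250) on the plus strand of X from 133850980 to 133865577, *Fmod* (ENSMUSG00000041559) on the plus strand of chromosome 1 from 134037254 to 134048277, and *Kera* (ENSMUSG00000019932) on the plus strand of chromosome 10 from 97606879 to 97613692. *Thbs2* (ENSMUSG00000023885) lies on the minus strand of chromosome 17 from 14665500 to 14694235, *Thbs4* (ENSMUSG00000021702) on the minus strand of chromosome 13 from 92751590 to 92794818, and *Cilp* (ENSMUSG00000042254) on the plus strand of chromosome 9 from 65265180 to 65280605. The identifier of *Mkx* is ENSMUSG00000061013.

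RefSeq (GRCm38.p6) gave promoter windows, 250 bases before to 50 bases after the start site, for 6 of the 8 genes and none for *Scx* and *Mkx*. The windows of *Tnmd* (chrX:133850758-133851057, plus strand), *Thbs4* (chr13:92794769-92795068, minus strand), *Cilp* (chr9:65264930-65265229, plus strand) and *Fmod* (chr1:134037004-134037303, plus strand) are printed because the first 3 of these genes varied together between cells and *Fmod* did so less. Each runs 5′ to 3′ along the gene's own strand, and capitals mark the E-box CANNTG, which reads the same on both strands.
Tnmd: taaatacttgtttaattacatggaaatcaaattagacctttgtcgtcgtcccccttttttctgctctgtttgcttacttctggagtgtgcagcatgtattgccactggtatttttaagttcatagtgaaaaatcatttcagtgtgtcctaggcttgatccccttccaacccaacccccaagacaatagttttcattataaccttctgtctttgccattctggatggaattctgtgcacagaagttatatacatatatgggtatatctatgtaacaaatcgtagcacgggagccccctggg
Thbs4: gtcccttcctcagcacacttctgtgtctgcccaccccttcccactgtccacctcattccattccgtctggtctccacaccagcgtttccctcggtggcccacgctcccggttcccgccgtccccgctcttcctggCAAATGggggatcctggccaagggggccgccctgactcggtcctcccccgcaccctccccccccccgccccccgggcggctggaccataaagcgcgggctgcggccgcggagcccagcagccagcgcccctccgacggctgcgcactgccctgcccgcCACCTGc
Cilp: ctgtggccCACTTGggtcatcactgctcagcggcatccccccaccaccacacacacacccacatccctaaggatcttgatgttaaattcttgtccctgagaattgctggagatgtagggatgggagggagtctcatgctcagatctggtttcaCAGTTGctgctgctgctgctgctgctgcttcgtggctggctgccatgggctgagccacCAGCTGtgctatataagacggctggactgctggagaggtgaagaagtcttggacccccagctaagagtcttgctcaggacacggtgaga
Fmod: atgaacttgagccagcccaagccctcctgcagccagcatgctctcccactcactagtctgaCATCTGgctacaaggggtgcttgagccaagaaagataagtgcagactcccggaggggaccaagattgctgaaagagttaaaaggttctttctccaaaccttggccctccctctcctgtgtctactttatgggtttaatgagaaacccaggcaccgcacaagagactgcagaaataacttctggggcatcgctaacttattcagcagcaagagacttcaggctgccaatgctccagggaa
The *Cilp* window held 3 E-boxes, that of *Thbs4* held 2, that of *Fmod* held 1 and that of *Tnmd* held none. The windows not printed held 2 for *Thbs2* and 0 for *Kera*. At least 1 such motif was found in 72.3% of the 32851 windows of the table, at least 2 in 39.6% and at least 3 in 17.6%.

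The e15.5 libraries held 3701900 to 9299431 UMIs and the p1 libraries 386517 to 8814472, each over 96 wells, whose 96 well numbers recur in every library, and no pair of wells had identical counts. Connective tissue cells had a median of 28477 UMIs and neurons 109396. Libraries differed in what they held: 3 to 71 connective tissue cells and 14 to 78 neurons each, with only 3 and 5 connective tissue cells in libraries 9 and 10. Ranges below are over libraries with at least 5 cells of a class, 9 for connective tissue and 10 for neurons. Libraries 6 and 7 stood apart for these genes. They held 125 of the 356 connective tissue cells (35.1%) but 80.3% of the *Scx* UMIs of that class, 85.9% of the *Tnmd*, 82.9% of the *Thbs4* and 92.8% of the *Cilp* UMIs, against 48.6% for *Mkx* and 29.3% for *Thbs2*. The ratios, and the main tests and pair correlations, are given with and without them.

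Summed over all cells of a class, each of the 8 members had a higher CPM in connective tissue than in neurons. The ratio was 4.21 for *Scx*, 5.98 for *Mkx*, 50.2 for *Thbs4*, 179 for *Thbs2*, 280 for *Cilp*, 398 for *Tnmd* and 521 for *Fmod*, and *Kera* had no UMI in neurons. Without libraries 6 and 7 the ratio was 1.28 for *Scx*, 4.85 for *Mkx*, 13.6 for *Thbs4*, 239 for *Thbs2*, 61.0 for *Cilp*, 176 for *Tnmd* and 690.5 for *Fmod*, and the level in connective tissue was 31.5 CPM for *Scx*, 37.9 CPM for *Thbs4*, 9.20 CPM for *Cilp* and 53.2 CPM for *Tnmd*. The *Tnmd* and *Cilp* ratios then rest on 12 and 6 UMIs in neurons. Only for *Fmod* and *Thbs2* did the libraries of the classes not overlap. The share of all genes without such overlap is not reported here, and 79.1% of 12469 genes were called between the classes in the test below. *Scx*, the progenitor factor, was at 10.3 CPM in the lowest library of connective tissue cells, 28.5 CPM in the median library and 232 CPM in the highest, and at 11.8, 21.3 and 33.1 CPM in neurons. Libraries 6 (232 CPM) and 7 (226 CPM) were far above the rest, library 8 followed at 59.8 CPM, and the other 6 libraries, at 10.3 to 38.4 CPM, overlapped the neurons. *Mkx* ran from 3.79 through a median of 15.4 to 26.1 CPM in connective tissue cells and from 1.54 through 2.81 to 5.90 CPM in neurons. Connective tissue was higher within each of the 9 libraries, and the ranges overlapped through connective tissue of library 8 at 3.79 CPM, which lay below the neurons of library 4 at 5.90 CPM.

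*Scx* reads need a caution in both classes. The gene lies within *Bop1*, a ribosome biogenesis gene on the opposite strand that spans 76452989 to 76477277, and none of the 2007 annotated exon bases of *Scx* falls in a *Bop1* exon. *Bop1* had 2858 UMIs in neurons and 327 in connective tissue cells, out of 44473348 and 10839865 UMIs in all. Over libraries of connective tissue cells it ran from 20.1 to 45.2 CPM. No source used here gives the strand setting of the counting, so *Scx* reads and unspliced *Bop1* reads cannot be told apart. Of 37 neurons without a *Bop1* UMI 4 had an *Scx* UMI, at 11.3 CPM summed over the 37, while the 360 neurons with *Bop1* stood at 24.6 CPM. Detection of either gene falls with depth. The depth of the 37 neurons and the number of their *Scx* UMIs are not reported here, and the difference was not tested. Within the 10 libraries r between the pair in neurons had a median of 0.202 (-0.060 to 0.576).

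*Tnmd*, the tenocyte marker, was listed at 0 in the connective tissue cells of libraries 1 and 10, had a median of 56.8 CPM and reached 577 and 584 CPM in libraries 6 and 7. In neurons it went from 0 through a median of 0.293 to 5.97 CPM, the last again in library 6. It was found in 98 of 356 connective tissue cells and 22 of 397 neurons, or, with each cell thinned to 10000 UMIs, in 21.9% and 0.756%. Its pooled level was 242 CPM (2621 UMIs) against 0.607 CPM (27 UMIs).

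The proteoglycans went apart. *Fmod* stood at 155 CPM in its lowest library of connective tissue cells, 385 CPM in the median and 621 CPM in the highest, and at 0, 1.05 and 2.95 CPM in neurons, so the classes did not overlap. It was detected in 241 of 356 connective tissue cells against 31 of 397 neurons (58.4% and 0.756% after thinning). *Kera* was close to the limit of detection, with 26 UMIs in 11 connective tissue cells and 10 of those UMIs in a single cell. Neurons had 0 of 397 cells with a *Kera* UMI, which allows a share of up to 0.756%, a limit on cells with a UMI and not on cells that express the gene. The observed *Kera* level in connective tissue cells was 35.6-fold a floor of 3 counts over all neurons. No error was set on its 26 UMIs, so this is not a lower limit.

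Among the other matrix genes, *Thbs2* was the most widely detected, in 331 of 356 connective tissue cells and 101 of 397 neurons (87.9% and 4.03% after thinning). It ranged over libraries from 492 through 676 to 933 CPM in connective tissue and from 0.333 through 4.67 to 11.3 CPM in neurons, with no overlap. *Thbs4* ranged from 0 through 27.5 to 368 CPM in connective tissue cells, highest in libraries 6 (368 CPM), 7 (271 CPM) and 8 (130 CPM), and from 1.54 through 2.86 to 5.18 CPM in neurons. *Cilp* followed the same order, at 239 CPM in library 6, 171 CPM in library 7 and 37.9 CPM in library 8, with 0 to 7.19 CPM in the other 6 libraries and 0 to 3.32 CPM in neurons. The ranges of both genes overlapped those of neurons. Unthinned, *Scx* was found in 37.4% of connective tissue cells and 61.2% of the deeper neurons, *Mkx* in 26.4% and 20.7%, *Thbs4* in 37.9% and 20.4%, and *Cilp* in 21.6% and 3.27%. After thinning, *Thbs4* was found in 28.9% of connective tissue cells and 1.51% of neurons, *Cilp* in 17.4% and 0.504%, *Scx* in 28.1% and 17.6%, and *Mkx* in 12.4% and 2.77%. Values of different genes are not per length, so their levels are not ranked against each other here.

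**Figure D1:**
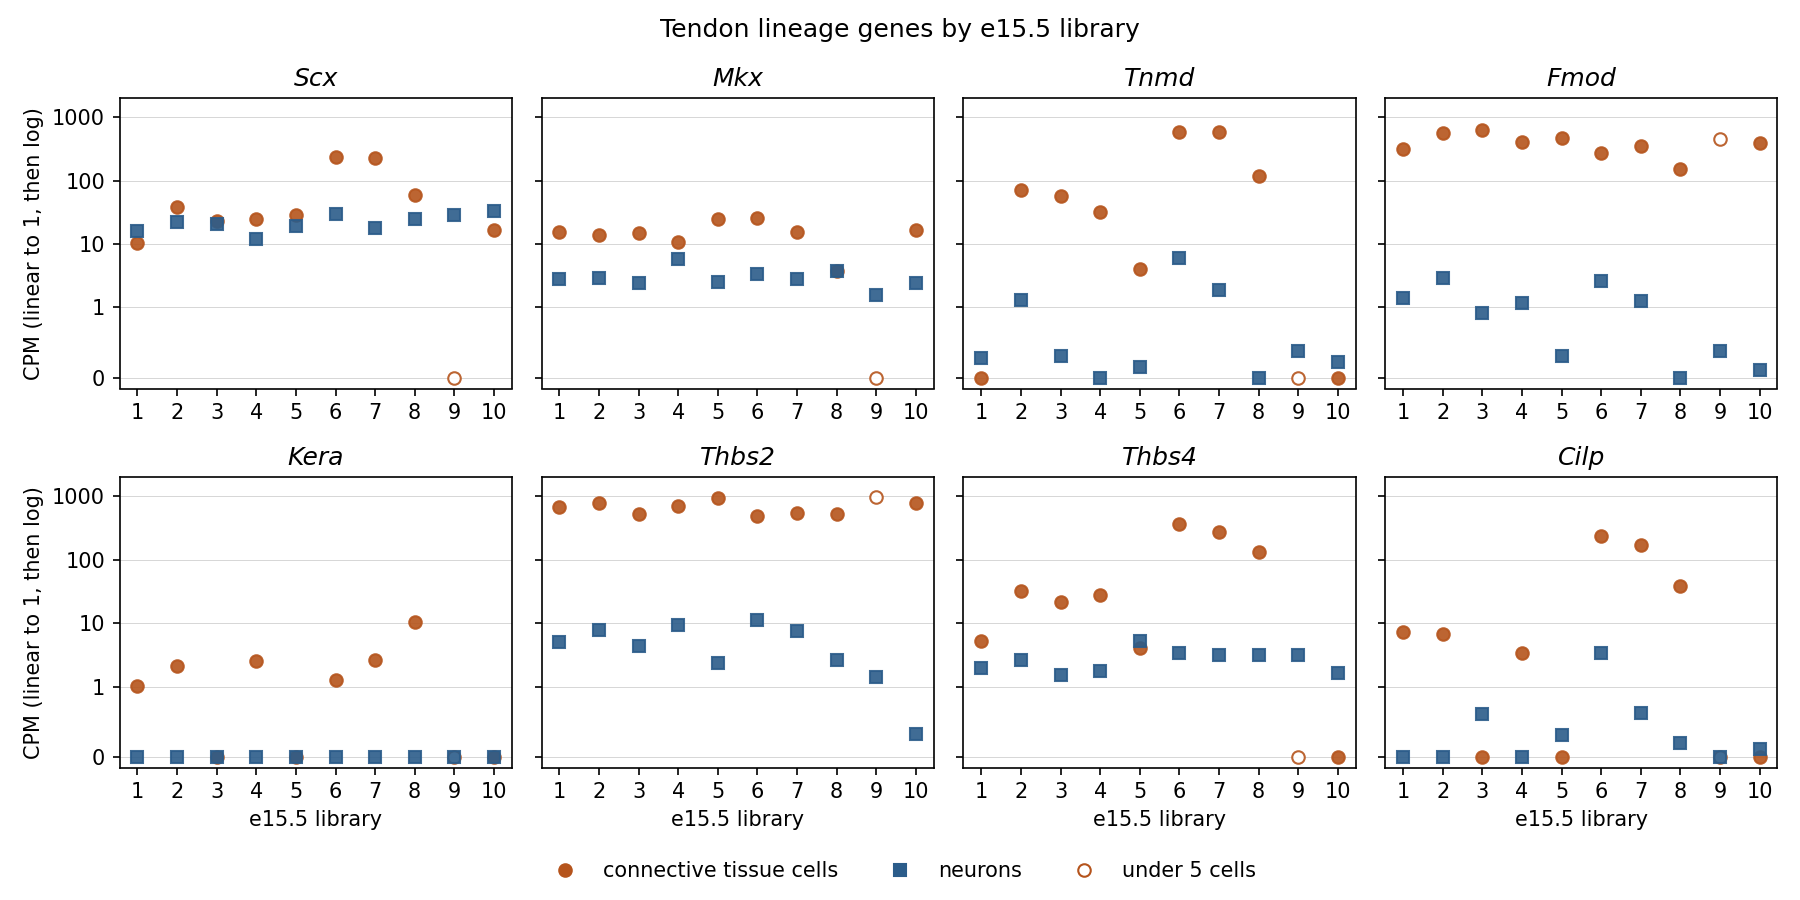
CPM of each member (vertical axis, linear to 1 and log above) in the 10 e15.5 libraries (horizontal axis), for UMIs summed over connective tissue cells (circles) and neurons (squares), with open circles where a library had under 5 cells. *Fmod* and *Thbs2* are separated in every library, while *Scx*, *Tnmd*, *Thbs4* and *Cilp* peak in libraries 6 and 7.

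Whether the classes differed was tested on UMIs summed per library and class, with edgeR's quasi-likelihood test over all genes. Of the 8 members, 4 passed the filter on low counts and these 4 were higher in connective tissue. This is to be read against a background in which 79.1% of the 12469 genes tested were called, 36.9% of all genes tested being higher in connective tissue and 42.2% lower. The filter keeps a gene with enough counts in either class. *Fmod*, at 0.742 CPM summed over neurons, could pass only through connective tissue, so its direction was set by the filter. *Thbs2*, at 3.49 CPM in neurons, may have passed in the same way. *Fmod* was higher by 8.91 ± 0.39 (log2 fold change ± SE, adjusted p = 2.29e-15), *Thbs2* by 7.32 ± 0.37 (adjusted p = 2.47e-14), *Mkx* by 2.49 ± 0.26 (adjusted p = 8.31e-09) and *Scx* by 1.88 ± 0.44 (adjusted p = 0.000459), over 9 sums of connective tissue cells and 10 of neurons. *Scx* was no longer called without libraries 6 and 7, at 0.48 ± 0.28 (adjusted p = 0.131), whereas *Mkx*, *Fmod* and *Thbs2* were, where 34.8% of genes were called higher. With no filter on low counts, where 23.0% of 30648 genes were called higher, all 8 members were called, *Tnmd* at 7.87 (adjusted p = 1.66e-09), *Cilp* at 7.30 (adjusted p = 3.61e-08), *Kera* at 5.76 (adjusted p = 3.09e-06) and *Thbs4* at 5.09 (adjusted p = 7.73e-09), values that lean on the prior count where neurons were near 0.

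Other genes listed for the tendon programme were set beside the members. Of 24 further tendon matrix genes, 22 were tested and 22 were higher in connective tissue, where 36.9% of all genes tested were. Collagen I set the class, so this count describes the wells chosen and is no test of a tendon programme. The median log2 fold change of the 22 genes was 6.67 against -0.08 over all genes tested. The largest were those of asporin (*Aspn*, 9.14 ± 0.39, adjusted p = 1.61e-15), lumican (*Lum*, 8.08 ± 0.52, adjusted p = 2.19e-12) and fibronectin (*Fn1*, 7.96 ± 0.55, adjusted p = 6.67e-12). Of 11 tendon regulators 10 were tested, 8 were higher and 1 was lower (8 and 0 with the library as a block), among the higher ones *Sox9*, the factor of cartilage and of tendon attachment sites, at 6.25 ± 0.46 (adjusted p = 1.96e-11), the TGF-beta receptor *Tgfbr2* at 6.12 ± 0.26 (adjusted p = 1.84e-15) and *Egr2* at 5.79 ± 0.36 (adjusted p = 1.17e-12).

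These genes were not the only connective tissue programme in the wells. All 9 tested fibroblast and mesenchyme genes, led by *Osr1* (8.78 ± 0.65), *Pdgfra* (7.85 ± 0.35) and *Twist1* (7.83 ± 0.35), all 5 tested cartilage genes, led by *Acan* (8.79 ± 0.48), *Col9a1* (7.71 ± 0.48) and *Col2a1* (4.89 ± 0.47), and the 4 tested perineurium and meninges genes, led by *Foxd1* (9.09 ± 0.40), *Foxc1* (7.87 ± 0.44) and *Slc2a1* (1.79 ± 0.24), were also higher (largest adjusted p among these 9, 5.30e-07 for *Slc2a1*). The 9 sensory neuron genes were lower, *Prph* by -5.26 ± 0.16, *Pvalb* by -5.10 ± 0.22 and *Etv1* by -5.06 ± 0.19. Of all genes tested, 36.9% were higher and 42.2% lower. Collagen I, *Avil* and *Isl1* set the classes, so these counts describe the wells chosen and are no test of a programme. Genes near 0 in neurons may have passed the filter only through connective tissue. Of 5 tested glia genes 1 was lower, *Fabp7* at -2.23 ± 0.51 (adjusted p = 0.000376), and none of 4 tested blood genes was called. With the library as a block 1 of the 4 was higher, the embryonic globin *Hbb-y* (1.61 ± 0.51, adjusted p = 0.0106), and the 5 blood genes summed to 9.15 to 7959 CPM per library in connective tissue and 6.43 to 1798 CPM in neurons. Skeletal muscle and endothelium genes did not pass the filter. Summed over a library, the 8 muscle genes reached at most 12.2 CPM in connective tissue cells, with the muscle factor *Myf5* at 0, and the 5 endothelium genes ran from 7.19 to 88.2 CPM, with *Cldn5* at 0.

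The 37 wells with both marker sets held every member but *Kera*, at levels between those of connective tissue cells and neurons. *Tnmd* stood there at 119 CPM, *Fmod* at 232 CPM, *Thbs2* at 379 CPM, *Thbs4* at 69.0 CPM, *Scx* at 63.2 CPM, *Cilp* at 52.4 CPM and *Mkx* at 9.97 CPM. In the 81 wells with neither, which were shallow (median 19425 UMIs), no member but *Thbs2* (13.4 CPM) and *Scx* (9.11 CPM) went above 2.43 CPM.

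Within connective tissue the members divided into genes spread over most cells and genes held by few. The 36 cells with the highest CPM of a gene held 24.7% of the *Thbs2* UMIs and 36.2% of the *Fmod* UMIs, but 61.1% of *Mkx*, 71.8% of *Thbs4*, 77.0% of *Scx*, 85.2% of *Tnmd* and 87.9% of *Cilp*. Among cells with a UMI, the middle range (lower to upper quartile) was 260 to 985 CPM for *Thbs2*, 153 to 790 CPM for *Fmod* and 60.8 to 1333 CPM for *Tnmd*, whose highest cell reached 3867 CPM. A connective tissue cell had UMIs of 3 of the 8 members at the median (2 after thinning), 5 cells had none, and 25 cells had all but *Kera* or all 8.

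**Figure D2:**
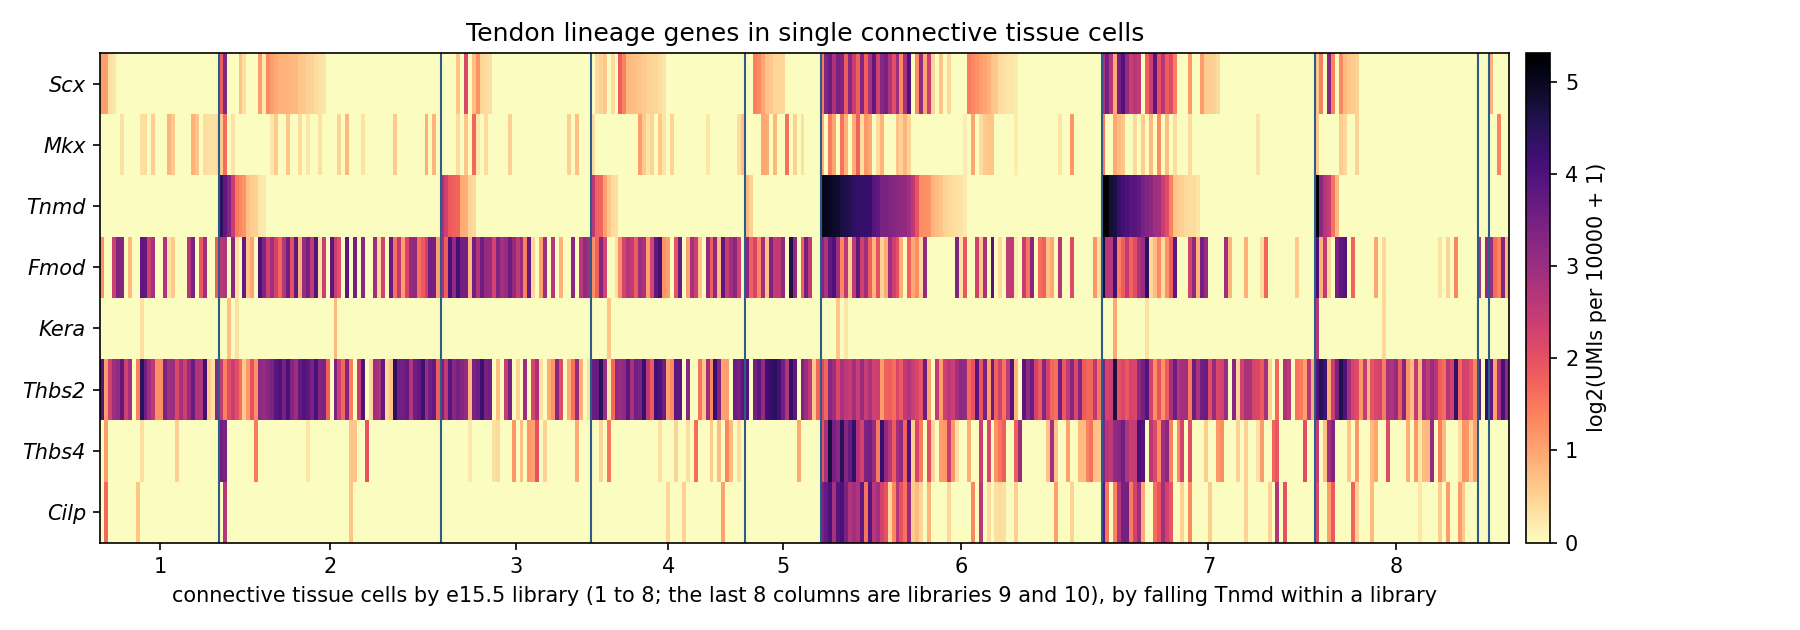
Log2(UMIs per 10000 + 1) of the 8 members (rows) in each of the 356 connective tissue cells (columns), by e15.5 library and by falling *Tnmd* within a library. In libraries 6 and 7 the cells with the most *Tnmd* also carry *Scx*, *Thbs4* and *Cilp*, while *Fmod* and *Thbs2* are spread over cells of each library.

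To ask which members go with *Tnmd*, connective tissue cells were split at 100 CPM of *Tnmd*, which is then a description and not a result. The 67 cells at or above it (18.8%) came from 6 libraries, 28 of them from library 6, 18 from library 7, 7 from library 2, 5 each from libraries 3 and 8 and 4 from library 4. There were 10 cells at 50 to 100 CPM and 9 at 100 to 200 CPM, and the depth was alike on both sides, with medians of 30372 and 28005 UMIs. *Scx* was found in 56 of the 67 cells and in 77 of the 289 below, *Thbs4* in 51 and 84, *Cilp* in 46 and 31, *Mkx* in 31 and 63, *Fmod* in 62 and 179, *Thbs2* in 67 and 264, and *Kera* in 7 and 4. *Scx*, *Mkx*, *Thbs4* and *Cilp* came together in 25 of the 67 cells and in 5 of the 289.

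*Scx*, *Thbs4* and *Cilp* were higher in the *Tnmd* cells, while *Fmod* and *Thbs2* were not called. Of the 6 other members tested 3 were called higher and none lower, where 2.23% of 10412 genes were called, 1.02% higher and 1.21% lower. *Scx* rose by 4.12 ± 0.48 (log2, adjusted p = 0.000394), *Cilp* by 4.61 ± 0.75 (adjusted p = 0.00411) and *Thbs4* by 3.54 ± 0.68 (adjusted p = 0.0127), from 5 sums of 63 cells against 9 of 286 (edgeR). *Cilp* was near 0 in most libraries below the threshold and may have passed the filter on low counts only through the *Tnmd* cells. Its direction may then have been set by the filter. *Mkx* stood at 1.46 ± 0.45 (adjusted p = 0.0985), *Fmod* at 0.71 ± 0.35 (adjusted p = 0.351) and *Thbs2* at -0.07 ± 0.26 (adjusted p = 0.962). With the split at 500 CPM *Mkx* was called (2.22 ± 0.46, adjusted p = 0.0342), from 2 sums of 38 cells at or above it. Without libraries 6 and 7 *Mkx* stood at 0.24 ± 0.67 (adjusted p = 0.942) and was not called. With the library as a block the same 3 were called (*Scx* adjusted p = 0.0296, *Cilp* 0.00229, *Thbs4* 0.0295) against 0.440% of genes called higher and 0.594% lower. *Kera* entered only without the filter on low counts (4.07, adjusted p = 0.0119, with 0.485% of genes called higher), where 20 of its 26 UMIs lay in the *Tnmd* cells.

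The libraries did not act alike in this split. Below and at or above the threshold *Scx* stood at 22.3 and 594 CPM in library 6, 15.9 and 623 CPM in library 7, 8.70 and 409 CPM in library 8 and 26.5 and 125 CPM in library 2. In library 3 it was at 24.7 and 11.7 CPM and in library 4 at 24.7 and 27.1 CPM. So the 9 *Tnmd* cells of libraries 3 and 4 differed little in *Scx* from the cells below, and they had less *Tnmd* too, at 333 and 299 CPM against 575 to 1669 CPM in the other 4 libraries. *Thbs4* went the same way, from 104 to 825 CPM in library 6, 58.5 to 672 CPM in library 7, 70.7 to 535 CPM in library 8 and 10.6 to 190 CPM in library 2, but from 25.7 to 0 CPM in library 3 and 29.3 to 9.05 CPM in library 4. *Cilp* went from 24.3 to 610 CPM, 27.8 to 442 CPM, 20.7 to 156 CPM and 0.589 to 51.9 CPM in libraries 6, 7, 8 and 2, and stood at 0 CPM in the *Tnmd* cells of libraries 3 and 4. Below the threshold *Scx* differed little between libraries (8.70 to 28.5 CPM), whereas *Thbs4* there ran from 0 to 104 CPM. Without libraries 6 and 7 the fold changes kept their sign, *Scx* at 3.03 ± 0.59, *Thbs4* at 3.25 ± 0.83 and *Cilp* at 3.59 ± 1.01, but no call was left among them (adjusted p = 0.0878, 0.157 and 0.200), where 0.109% of genes were called higher. Without library 7 alone *Thbs4* was lost (adjusted p = 0.0665), and with the split at 1 *Tnmd* UMI only *Scx* was called, *Thbs4* being at 2.92 (adjusted p = 0.0889) and *Cilp* at 3.76 (adjusted p = 0.0582).

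**Figure D3:**
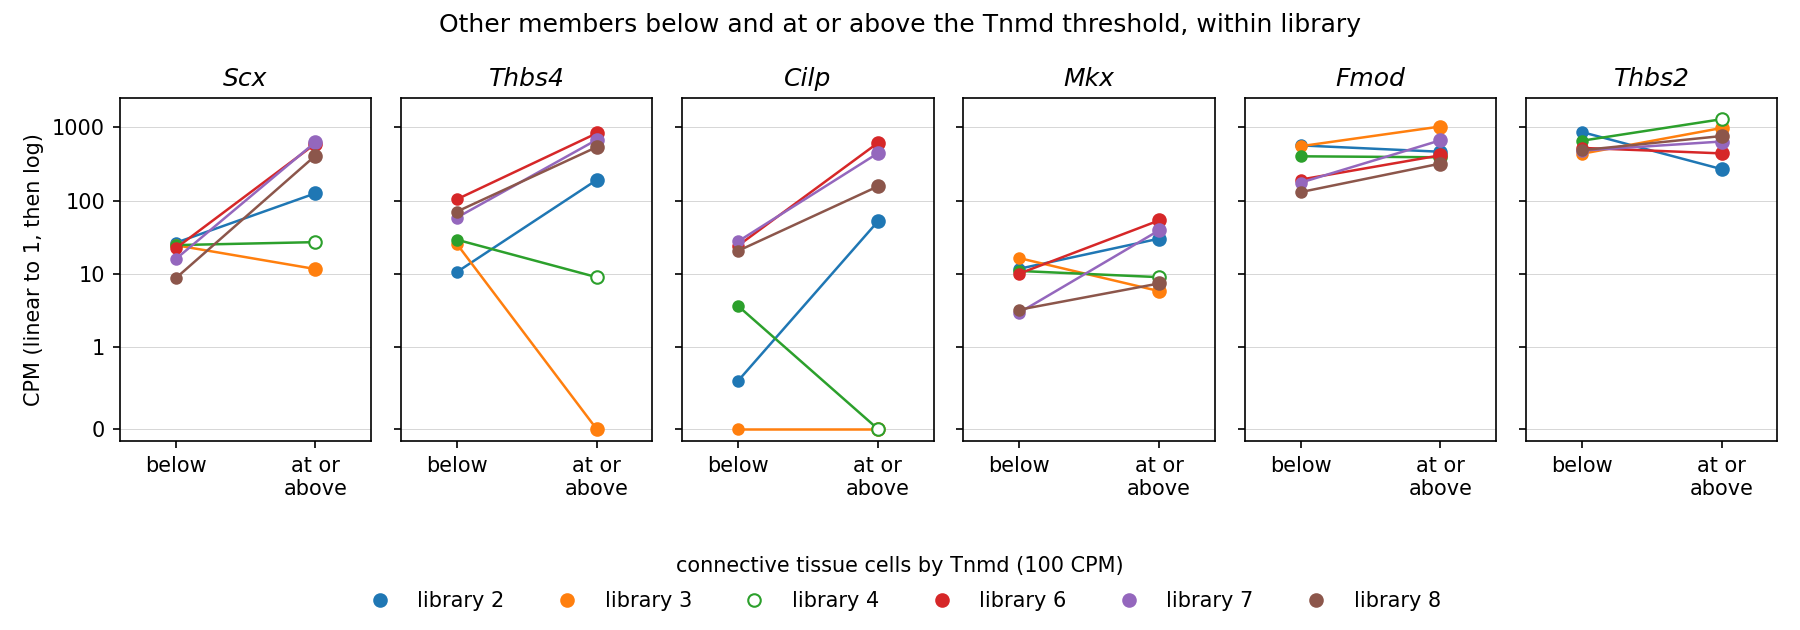
CPM (vertical axis, linear to 1 and log above) of 6 members in connective tissue cells below and at or above 100 CPM of *Tnmd* (horizontal axis), joined within each of the 6 libraries that had both, with an open circle for the library with 4 cells at or above it. *Scx*, *Thbs4* and *Cilp* are far higher at or above it in libraries 2, 6, 7 and 8 and not in libraries 3 and 4, and *Fmod* and *Thbs2* go up in some libraries and down in others.

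Some other genes of the programme also differed between these cells, where 1.02% of all genes tested were called higher and 1.21% lower. The median log2 fold change of the 24 tendon matrix genes was 0.16, against -0.01 over all genes tested. Of 24 tendon matrix genes tested, 4 were higher with *Tnmd*, fibronectin *Fn1* (1.72 ± 0.36, adjusted p = 0.0198), the TGF-beta induced matrix protein *Tgfbi* (2.25 ± 0.51, adjusted p = 0.0287), and the collagens *Col14a1* (1.12 ± 0.23, adjusted p = 0.0179) and *Col5a1* (0.67 ± 0.16, adjusted p = 0.0367). There were 2 lower, the proteoglycan *Omd* (-3.69 ± 0.92, adjusted p = 0.0412) and *Comp* (-2.82 ± 0.65, adjusted p = 0.0312), which belongs to the thrombospondin family. With the library as a block 2 stayed higher (*Fn1* and *Tgfbi*) and 1 lower (*Omd*), where 0.440% of genes were called higher and 0.594% lower. Among 10 regulators *Sox9* was higher by 1.94 ± 0.43 (adjusted p = 0.0256) and the ligand *Tgfb2* by 0.97 ± 0.22 (adjusted p = 0.0288), and with the block *Egr2* joined them (1.16 ± 0.17, adjusted p = 0.0117). *Sox9* was also called without libraries 6 and 7, at 2.22 ± 0.29 (adjusted p = 0.00834), the only one of the listed genes that was.

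Single markers of other cells were called lower as well, where 1.21% of all genes were. They were 1 of 12 tested fibroblast and mesenchyme genes, 1 of 3 glia genes and 1 of 9 sensory neuron genes. *Pdgfrb*, the receptor of pericytes and fibroblasts, was lower by -1.55 ± 0.32 (adjusted p = 0.0170), *Apoe*, on the glia list, by -2.93 ± 0.66 (adjusted p = 0.0270) and the proprioceptor factor *Runx3* by -3.62 ± 0.72 (adjusted p = 0.0154), which did not pass the filter on low counts with the library as a block and was not called without libraries 6 and 7 (adjusted p = 0.251). The 12 fibroblast and mesenchyme genes summed to 3001 to 5896 CPM per library in the *Tnmd* cells (median 5404 CPM). Below the threshold they summed to 1749 to 9835 CPM (median 2217 CPM). The 6 glia genes summed to 29.2 to 54.3 CPM per library in the *Tnmd* cells, with *Erbb3* at 0, and to 83.7 to 543 CPM below the threshold. The 5 blood genes summed to 0 to 354 CPM and 9.16 to 11991 CPM, with 3 of the 4 tested lower under the block, and the 9 sensory neuron genes to 346 to 645 CPM and 334 to 1071 CPM. The 6 perineurium and meninges genes summed to 75.8 to 426 CPM and 180 to 5257 CPM, with none of the 5 tested called. The part of these markers in the result was not tested.

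Cycling cells offered a second split. With *Mki67* and *Top2a* together at 100 CPM or more, 126 connective tissue cells (35.4%) were cycling, 26 of the 67 *Tnmd* cells (38.8%) and 34.6% of those below, and 71 cells lay between 50 and 200 CPM. No member of 6 tested was called in either direction by edgeR, where 6.78% of 8675 genes were, 5.51% higher and 1.27% lower. The changes were 0.60 ± 0.71 for *Scx*, 0.56 ± 0.85 for *Thbs4*, 0.26 ± 0.96 for *Tnmd*, 0.21 ± 0.99 for *Cilp*, -0.07 ± 0.20 for *Thbs2* and -0.15 ± 0.32 for *Fmod* (log2, cycling over other cells, 7 sums against 8). No unadjusted p was under 0.05 in that fit, DESeq2 called none, and with the library as a block *Thbs4* alone fell below it (0.73 ± 0.34, unadjusted p = 0.0467, adjusted p = 0.205). The SEs of *Scx*, *Tnmd*, *Thbs4* and *Cilp* were wide without the block, which leaves out the pairing of sums by library. With it *Scx* stood at 0.62 ± 0.40, *Tnmd* at 0.14 ± 0.40 and *Cilp* at 0.23 ± 0.44, none of them called. Libraries differed in direction for *Scx*, with 382 CPM in cycling and 96.4 CPM in other cells of library 7 but 138 and 300 CPM in library 6. Under the block 5 tendon matrix genes were lower in cycling cells (*Col3a1*, *Col5a1*, *Col6a1*, *Col6a2* and *Ogn*, -0.37 to -0.52), where 9.27% of genes were called and 2.82% were lower, against 0 of 23 without it.

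Pair correlations within a library describe how the members vary from cell to cell. They were computed on log2(UMIs per 10000 + 1) in the 8 libraries with at least 10 connective tissue cells, and cells of a library share its preparation and differ in depth. *Thbs4* and *Cilp* had the highest median r, 0.670 (-0.137 to 0.792, positive in 5 of 6 libraries in which both varied), and *Scx* and *Cilp* came next at 0.629 (-0.177 to 0.825, 5 of 6). *Scx* with *Tnmd* stood at 0.509 (-0.243 to 0.859, 6 of 7), *Tnmd* with *Cilp* at 0.495 (4 of 5), *Scx* with *Thbs4* at 0.473 (5 of 8) and *Tnmd* with *Thbs4* at 0.399 (4 of 7). These 4 genes therefore varied together in some libraries and not in others. *Fmod* and *Thbs2* formed the other pair, at 0.575 (0.159 to 0.726), positive in 8 of 8 libraries. *Thbs2* and *Thbs4*, of 1 gene family, had the lowest value, -0.222 (-0.507 to 0.078), and were positive in 1 of 8.

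*Mkx* went with genes of both groups, though not with *Thbs4*. Its median r was 0.373 with *Cilp*, 0.360 with *Scx* (7 of 8 libraries) and 0.325 with *Tnmd* (5 of 7). It was 0.245 with *Thbs2* (8 of 8), 0.235 with *Fmod* and 0.005 with *Thbs4* (4 of 8). *Kera*, in 11 cells, had its highest values with *Tnmd* (0.280, 5 of 5) and *Fmod* (0.252, 4 of 6), and these rest on a handful of cells. The median over the 28 pairs was 0.245, while the median r of a member with some 12293 to 12571 other detected genes lay between -0.022 and -0.007. With depth (log2 UMIs) the members had median r of -0.080 to 0.143. Leaving out libraries 6 and 7 lowered *Scx* with *Tnmd* to 0.113, *Scx* with *Thbs4* to 0.117 and *Tnmd* with *Thbs4* to -0.012, but left *Thbs4* with *Cilp* at 0.534, *Scx* with *Cilp* at 0.497 and *Fmod* with *Thbs2* at 0.471 (4, 4 and 6 libraries). The *Cilp* values then rest on few cells, as it had a UMI in 2, 2, 3 and 11 cells of libraries 1, 2, 4 and 8. Among cells that were not cycling *Scx* with *Thbs4* turned to -0.063 (positive in 4 of 8 libraries), and as Spearman's rho it stood at 0.124.

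**Figure D4:**
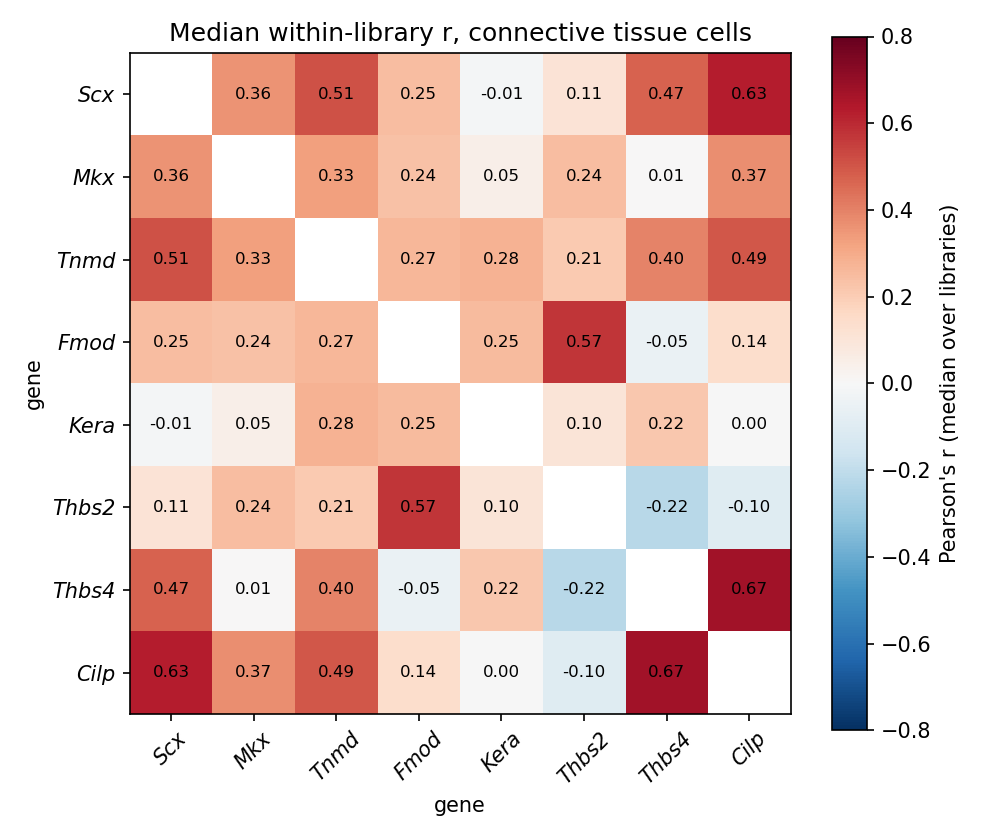
Median over libraries of Pearson's r between the members named on the 2 axes, across connective tissue cells within a library. *Scx*, *Tnmd*, *Thbs4* and *Cilp* share values of 0.40 to 0.67, *Fmod* and *Thbs2* have 0.57, and *Thbs2* with *Thbs4* has -0.22.

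For the 7 members found in at least 20% of connective tissue cells, the 5 genes with the highest median r were listed from all genes found in at least 10% of these cells and varying in each library in which the member did, which left *Tnmd* and *Cilp* out as partners of the rest. *Scx* was led by *Zfp185*, a cytoskeletal LIM protein (0.531), then *Thbs4*, the secreted protease *Htra1* (0.415), the lectin *Chodl* (0.385) and the water channel *Aqp1* (0.377). *Mkx* was led by *Scx*, then *Rflnb* (0.345), *Thbs1* (0.300), the collagen cross-linking enzyme *Lox* (0.298) and the protease *Htra3* (0.280). *Tnmd* was led by *C1qtnf3* (0.552), *Htra1* (0.537), the kinase *Stk26* (0.509), *Scx* and the carboxypeptidase *Cpm* (0.508). *Thbs4* and *Cilp* shared *Chodl* (0.598 and 0.504) and *Scx* among their 5. *Thbs4* also had *Gas1* (0.527), *Tril* (0.497) and *Fn1* (0.483), and *Cilp* had *Thbs4*, *Zfp185* (0.644) and *Pamr1* (0.491).

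*Fmod* and *Thbs2* kept different company. *Fmod* was led by the proteoglycan biglycan (*Bgn*, 0.606), *1500015O10Rik* (0.576), *Thbs2*, aggrecan (*Acan*, 0.548) and *Fndc1* (0.525). *Thbs2* was led by *Col1a1* (0.716), which with *Col1a2* (0.673) set the class, by *Aspn* (0.713), the collagen *Col8a2* (0.692) and *Clec11a* (0.680). The r of each of these with *Fmod* or *Thbs2* was positive in all 8 libraries, the lowest being 0.132 for *Fndc1*, whereas *Zfp185* with *Scx* went down to -0.069 and *Chodl* with *Thbs4* to -0.083. Among all partner genes *Thbs2* was 3rd for *Fmod*, *Thbs4* was 2nd for *Scx* and 1st for *Cilp*, and *Thbs4* was 11808th of 12293 for *Thbs2*.

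At p1, where 1 of 369 wells met the connective tissue rule, only neurons could be described. In 358 p1 neurons *Mkx* had 13.8 CPM, in 173 cells, with 8.30 CPM in the lowest library and 20.9 CPM in the highest, against 2.70 CPM in 82 of the 397 e15.5 neurons and 1.54 to 5.90 CPM over libraries. The ranges did not overlap, and the share of all genes for which this held is not reported here. *Scx* had 9.82 CPM at p1 and 24.3 CPM at e15.5, with *Bop1* at 18.8 and 64.3 CPM. The others were near 0 at p1, with *Thbs4* at 0.978 CPM, *Thbs2* at 0.689 CPM, *Tnmd* at 0.217 CPM, *Fmod* at 0.145 CPM, *Cilp* at 0.036 CPM and *Kera* at 0. The ages differ in mouse line and in sorting against picking, which cannot be told apart from age, and no test was made.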

How the data were processed

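Transcripts of single mouse DRG cells were counted by CEL-Seq2 at e15.5 (10 libraries) and p1 (6 libraries). The authors deposited counts of UMIs per gene and well, not normalized, mapped to mm10 and counted with scruff, and no source used here gives the strand setting. Values are 3′-end counts that are not divided by length. Wells with at least 10000 UMIs were kept, classed by the thresholds given above, and no doublet caller was run; wells with both marker sets stayed out of both classes. Gene symbols came from GENCODE M21. CPM was computed from UMIs summed per library and class, and shares of cells were also given after thinning each cell to 10000 UMIs. Intervals and floors, here 3 counts, cover counting error only.

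Sums of at least 5 cells were tested with edgeR 4.0.16 in R 4.3.3 (TMM, filterByExpr, quasi-likelihood test, two-sided, Benjamini-Hochberg over all genes tested, threshold 0.05), tried first on simulated data. Libraries are the replicates, and animals are not named. DESeq2 1.42.0, other thresholds, fits without single libraries, and a library block were alternatives. The block pairs sums from the same library preparation, and such sums deviated together, with a median r of 0.177 for classes, 0.185 for the *Tnmd* split and 0.507 for cycling cells, against -0.011, -0.046 and -0.147 for sums of different libraries. Named were all members, up to 3 genes per marker list in the class contrast (largest fold), up to 5 called per list in the other contrasts, genes that went against their list, and 5 partners per member. The regulator that was lower, against its list, is not reported by name here. The members and lists were chosen with earlier results of these data known. Python 3.11.15 with NumPy 2.4.6, pandas 2.3.3, SciPy 1.17.1 and Matplotlib 3.10.9 did the rest.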

Additional observations from a re-analysis of the deposited data

Results flagged for a closer look

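Of 54 groups of 4 to 10 libraries, 15 held a library whose gap to its neighbour was over the Dixon limit, where chance gives about 1 in 20. These groups share cells, so the flags are not independent of each other.

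In connective tissue *Kera* stood at 10.4 CPM in library 8 (next 2.59 CPM), where 10 UMIs came from 1 cell. The same library was apart for *Kera* among *Tnmd* cells at 74.3 CPM (next 13.0 CPM) and among cells that were not cycling at 23.2 CPM (next 4.76 CPM), and library 4 was apart below the *Tnmd* threshold at 2.75 CPM (next 1.09 CPM).

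*Scx* was apart in the cycling cells of library 7 at 382 CPM (next 138 CPM) and in the other cells of library 6 at 300.1 CPM (next 96.4 CPM). In those other cells of library 6 *Thbs4* stood at 426 CPM (next 186 CPM) and *Cilp* at 296 CPM (next 119 CPM).

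In e15.5 neurons *Tnmd* was apart in library 6 at 5.97 CPM (next 1.89 CPM), as was *Cilp* at 3.32 CPM (next 0.631 CPM). *Mkx* was apart in library 4 at 5.90 CPM (next 3.77 CPM) and *Thbs4* in library 5 at 5.18 CPM (next 3.32 CPM).

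In p1 neurons *Cilp* was at 4.19 CPM in library 3, from 1 UMI over 12 cells, and at 0 elsewhere. *Fmod* was at 0.695 CPM (next 0.239 CPM) and *Thbs2* at 1.85 CPM (next 0.644 CPM), both in library 6.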

How the results depend on the processing

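The number of members called higher in connective tissue was 4, and 8 with no filter on low counts. In the *Tnmd* split it was 3, but 4 with the split at 500 CPM, which adds *Mkx*, 4 with no filter on low counts, which adds *Kera*, 2 after thinning, where *Cilp* did not pass the filter, 1 with the split at 1 *Tnmd* UMI and 0 without libraries 6 and 7, an alternative chosen after seeing the data. Without single libraries the latter count ran from 2 to 3. *Thbs2* changed sign in the *Tnmd* split, to 0.0183 at 1 *Tnmd* UMI, 0.0805 with the replicate block, and from -0.39 to 0.18 over fits without single libraries. In cycling cells *Fmod* (0.017) and *Thbs2* (0.0525) changed sign without libraries 6 and 7. Over fits without single libraries *Scx* ran from -0.12 to 1.55, *Tnmd* from -0.25 to 0.74, *Fmod* from -0.32 to 0.0015 and *Thbs2* from -0.21 to 0.0079, the first 2 and *Thbs2* changing sign without library 7 and *Fmod* without library 3. None of these was called in either fit, and the cause was not tested. The fits that leave out libraries did not use the library block. With the library as a block the counts of members called were 4, 3 and 0, as without it. The median r over the 28 pairs was 0.245, and 0.115 to 0.257 under the alternatives. Depth limits *Kera* most, with 26 UMIs in all.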
